A study of Mus musculus with 8 samples.

Results

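The transcription factors that assign dorsal root ganglion neurons to their subtypes were examined in sorted C low-threshold mechanoreceptors (C-LTMRs), unmyelinated touch neurons of hairy skin. The 10 genes were chosen by name from the 55573 genes of the deposited count table: Runx1, Runx3, Zfp521, Pou4f1, Pou4f2, Pou4f3, Isl1, Maf, Shox2 and Prdm12. GFP-positive C-LTMRs were taken by flow cytometry from adult wild-type (WT) mice and from adult mice without Bhlha9 (KO), which encodes a transcription factor of the basic helix-loop-helix (bHLH) class. Each library came from males or from females, with 2 libraries in each of the 4 groups, which the series' design text calls biological replicates. Libraries are named by sex, genotype and replicate number, as in male_KO1. The strain, the GFP reporter, the kind of Bhlha9 allele and any pooling of animals are not given in the sources used here. Levels are CPM (read counts scaled to a common library total), adjusted by TMM factors of edgeR, and levels of different genes are compared only after division by exon length (CPM per kilobase).

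As background, sensory neurons of the dorsal root ganglia acquire identity in steps. Pou4f1 and Isl1, a POU-domain and a LIM-homeodomain factor, act in newly formed sensory neurons of all classes and open the programmes that follow. Runx1 and Prdm12 belong to the small-diameter branch of nociceptors and C-LTMRs, and Runx1 together with the zinc-finger protein Zfp521 is needed for C-LTMR identity. Runx3, Shox2 and Maf act in the large-diameter branch of proprioceptors and myelinated touch neurons.

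Across the 8 libraries, 6 of the 10 factors were abundant and 4 were low. Averaged over the 8 libraries, Prdm12 stood at 143 CPM per kilobase, Pou4f1 at 65.8, Isl1 at 38.2, Zfp521 at 25.2, Pou4f2 at 25.1 and Runx1 at 18.3. Shox2 stood at 0.561 CPM per kilobase, Maf at 0.507, Pou4f3 at 0.322 and Runx3 at 0.25. Prdm12 lay above 97.6% of the 22013 tested genes on this scale, and Runx1 above 83.3%, whereas Runx3 lay above 16%. Of the 10 factors 0 passed the edgeR test of KO against WT at an adjusted p of 0.05 in males, in females or across both sexes, against 0.00454% of all tested genes in each. Among the low factors Runx3, Shox2 and Maf had their highest level in the same library, male_KO1.

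**Figure D1:**
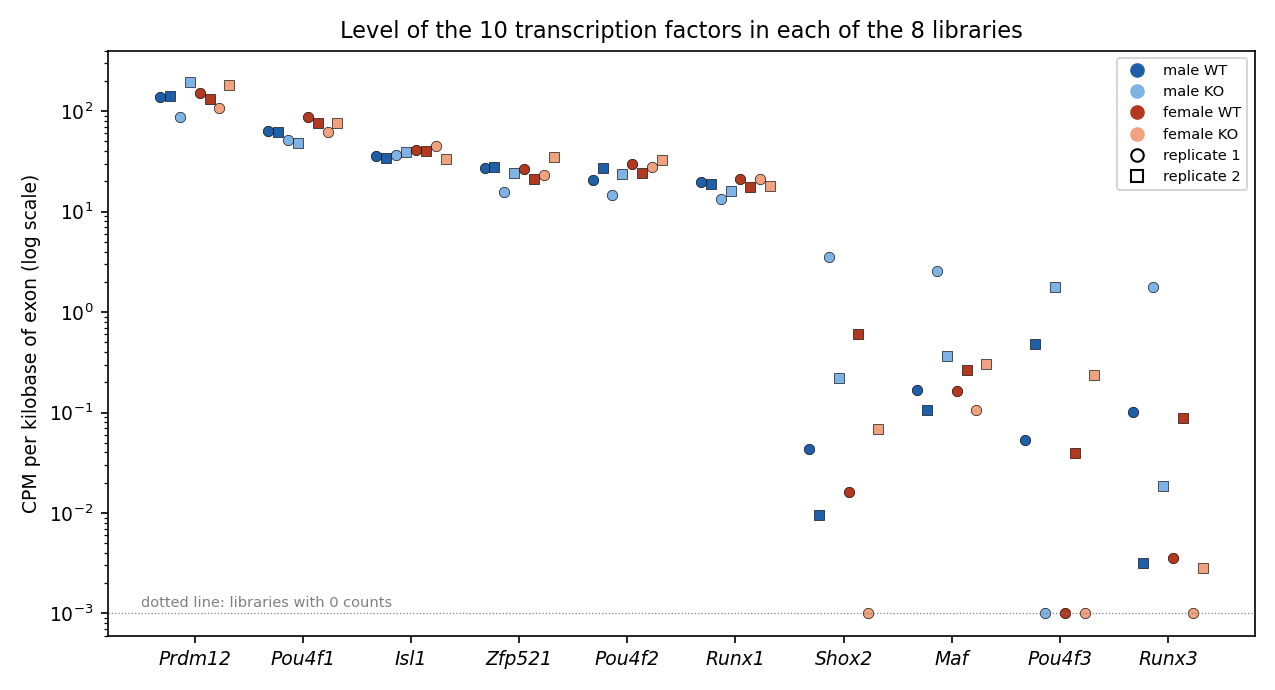
CPM per kilobase of exon on a log axis for each of the 10 genes, ordered by mean level, with 1 point per library, coloured by group and shaped by replicate number. Libraries with 0 counts sit on the dotted line. The 6 abundant genes form tight columns, whereas Shox2, Maf and Runx3 each have 1 point, male_KO1, far above the others.

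In WT cells the order was the same in its upper part. Over the 4 WT libraries Prdm12 ranged from 131 to 153 CPM per kilobase, Pou4f1 from 61.8 to 87.7 and Isl1 from 34.5 to 41.2, so these 3 neighbours in the order did not overlap. Zfp521 ranged from 21.1 to 27.9 and Pou4f2 from 20.6 to 29.7, and these could not be ranked beyond their spread. Runx1 ranged from 17.8 to 21 and overlapped Pou4f2. Among the low factors the WT ranges were 0.0095 to 0.612 for Shox2, 0.105 to 0.265 for Maf, 0 to 0.485 for Pou4f3 and 0.00314 to 0.101 for Runx3. Maf lay above Runx3 in WT cells by a narrow margin, and every other pair of these 4 overlapped.

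The labels of genotype and cell type could be checked in the reads. Sex was taken from the library titles and was not checked. Bhlha9 had 7930 to 10252 counts in the WT libraries and 9 to 24 counts in the KO libraries. Th, Slc17a8 and Fam19a4, defining genes of C-LTMRs, were present in every library, at 2980 to 5360, 30.9 to 55 and 222 to 426 CPM. Total counts ranged from 50919885 to 71956309 per library, and 3 counts corresponded to at most 0.0589 CPM. The cDNA was amplified without molecular identifiers, so a count of a rare transcript can stand for copies of few molecules, and a floor of 3 counts covers counting error only. Libraries were of bulk RNA, in which fewer cells of a type and less RNA per cell cannot be told apart.

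Sequences upstream of the starts are shown first for Prdm12, Pou4f1 and Runx1, abundant factors in every library, and for Runx3 and Shox2, which were high in 1 library. They are the 250 bases before a RefSeq gene start on GRCm38.p6, given 5′ to 3′ on the strand of the gene. For Runx1 the 75 bases nearest the start, which GENCODE annotates as exon, are left off. Capitals mark E-boxes, the letters CANNTG that bHLH factors bind as a class, and the RUNX letters TGTGGT on either strand (ACCACA as printed).
Prdm12 (chr2:31639787-31640036, plus strand): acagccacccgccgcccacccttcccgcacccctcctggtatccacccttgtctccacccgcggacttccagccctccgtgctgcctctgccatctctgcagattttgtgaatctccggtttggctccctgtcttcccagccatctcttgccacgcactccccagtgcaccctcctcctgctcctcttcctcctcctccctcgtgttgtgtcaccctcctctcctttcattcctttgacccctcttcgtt
Pou4f1 (chr14:104468000-104468249, minus strand): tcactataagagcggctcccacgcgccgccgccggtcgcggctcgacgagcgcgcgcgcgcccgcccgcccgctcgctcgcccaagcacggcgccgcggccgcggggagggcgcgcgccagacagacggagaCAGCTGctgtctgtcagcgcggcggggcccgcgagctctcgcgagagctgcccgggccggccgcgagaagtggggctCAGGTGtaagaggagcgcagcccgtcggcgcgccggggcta
Runx1 distal start (chr16:92826150-92826324, minus strand): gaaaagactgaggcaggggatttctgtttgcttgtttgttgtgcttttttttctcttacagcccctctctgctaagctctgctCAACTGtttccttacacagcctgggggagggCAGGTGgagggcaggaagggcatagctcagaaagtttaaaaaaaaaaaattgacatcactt
Runx3 distal start (chr4:135120395-135120644, plus strand): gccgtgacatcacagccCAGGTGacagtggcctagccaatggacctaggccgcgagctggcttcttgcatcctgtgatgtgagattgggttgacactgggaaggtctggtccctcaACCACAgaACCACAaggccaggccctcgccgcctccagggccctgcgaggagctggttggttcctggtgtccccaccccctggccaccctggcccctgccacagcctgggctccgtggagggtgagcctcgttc
Shox2 (chr3:66981772-66982021, minus strand): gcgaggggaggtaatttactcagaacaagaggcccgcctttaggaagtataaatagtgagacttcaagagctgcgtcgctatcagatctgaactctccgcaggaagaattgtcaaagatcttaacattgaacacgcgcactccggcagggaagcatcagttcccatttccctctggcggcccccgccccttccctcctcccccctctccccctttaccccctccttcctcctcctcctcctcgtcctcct

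RefSeq held 9 such windows for 7 of the 10 genes, and none was matched for Zfp521, Pou4f3 and Maf. An E-box was found in 4 of the 9 whole windows and in 66.2% of all 32851 promoter windows. The distal Runx1 window held 3 E-boxes, of which 2 lie in the stretch printed, and the Pou4f1 window held 2. RUNX letters were found only in the distal Runx3 window among the 9, in 2 copies, and in 14% of all windows. No E-box overlapped a RUNX site in the stretches printed, and 53 bases of the Runx3 window are exon of Gm16225. The GC content of the 9 windows ranged from 45.6% to 78.8%, above the median of 52.4% over all windows for 8 of them. These matches describe letters and not bound sites.

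Pou4f1 and Isl1, the factors of all sensory neurons, were high in each library. Isl1 stood at 141 and 137 CPM in male WT, 145 and 156 in male KO, 163 and 159 in female WT, and 178 and 131 in female KO. It was among the steadiest genes measured, since only 2.2% of tested genes had a smaller SD of log2 CPM over the 8 libraries than its 0.15. Its fitted KO against WT difference across both sexes was 0.03 in log2 (95% interval -0.26 to 0.31, edgeR adjusted p = 1). The libraries of male KO lay above those of male WT, by little, and those of female KO lay on both sides of female WT.

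Pou4f1 stood at 294 and 289 CPM in male WT, 242 and 224 in male KO, 410 and 354 in female WT, and 293 and 353 in female KO. Within each sex both KO libraries lay below both WT libraries, although in females the margin was 353 against 354 CPM. Across both sexes the log2 difference was -0.28 (SE 0.11, 95% interval -0.53 to -0.04, unadjusted p = 0.0292, edgeR adjusted p = 1), so it did not pass over all genes, of which 3.56% had an unadjusted p below 0.05. The log2 difference was -0.32 (SE 0.16) in males and -0.24 (SE 0.16) in females, and the difference between these was -0.08 (SE 0.23, edgeR adjusted p = 1). With 1 library left out in turn the value across both sexes ran from -0.35 to -0.24, at an edgeR adjusted p of at least 0.949. The value in females alone ran from -0.39 (without female_KO2) to -0.11 (without female_KO1). Within each genotype the female libraries were above the male ones, which was not tested.

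The other members of the POU4F family are sensory neuron factors as well, best known from the retina (Pou4f2) and the inner ear (Pou4f3). Pou4f2 stood at 66 and 86.7 CPM in male WT, 47.1 and 75.4 in male KO, 95.2 and 78.3 in female WT, and 89.7 and 104 in female KO. The male KO libraries overlapped those of WT, and the log2 difference was -0.32 (SE 0.28) in males and 0.16 (SE 0.28) in females (edgeR adjusted p = 1 in each). With 1 library left out the Pou4f2 value ran in males from -0.72 (without male_KO2) to -0.02 (without male_KO1), and in females from 0.02 (without female_WT2) to 0.31 (without female_WT1). Pou4f3 had 8 and 74 counts in male WT, 0 and 274 in male KO, 0 and 6 in female WT, and 0 and 40 in female KO. Each group thus had a library near or at 0 beside a higher one, and the highest, male_KO2, reached 4.22 CPM. Of the reads of the family per kilobase, Pou4f1 took 65.5% to 77.9%, Pou4f2 22.1% to 32.1% and Pou4f3 at most 2.4%.

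Runx1, Zfp521 and Prdm12, the factors of the small-diameter branch, were abundant in all groups. Runx1, a Runt-domain factor that keeps C-LTMR and nonpeptidergic programmes on, stood at 238 and 225 CPM in male WT and at 161 and 195 in male KO. In female WT it stood at 253 and 214 CPM and in female KO at 253 and 218. The male KO libraries lay below the male WT libraries, while those of the female groups interleaved. The log2 difference was -0.38 in males (SE 0.18, 95% interval -0.8 to 0.04, edgeR adjusted p = 1) and 0.01 in females (SE 0.18, 95% interval -0.4 to 0.43, edgeR adjusted p = 1). The difference between the sexes was -0.39 (SE 0.25, edgeR adjusted p = 1), so a male effect distinct from that in females was not shown. The value in males was -0.25 without male_KO1 and -0.54 without male_KO2.

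Zfp521, a multi-zinc-finger factor of C-LTMRs, stood at 191 and 196 CPM in male WT, 111 and 171 in male KO, 189 and 149 in female WT, and 164 and 246 in female KO. Both male KO libraries were below both male WT libraries, and the lowest and highest of all 8 were KO libraries, male_KO1 and female_KO2. The log2 difference was -0.46 (SE 0.29) in males and 0.28 (SE 0.29) in females (edgeR adjusted p = 1 in each), and -0.74 (SE 0.4, edgeR adjusted p = 1) between the sexes. The male value was -0.18 without male_KO1 and -0.83 without male_KO2, and the female value was -0.05 without female_KO2 and 0.55 without female_KO1.

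Prdm12, a PR-domain factor needed for nociceptors to form, stood at 347 and 352 CPM in male WT and at 379 and 325 in female WT. In male KO it stood at 218 and 482 CPM and in female KO at 265 and 455. The WT libraries thus lay between the KO libraries in each sex, with replicate 1 of KO below and replicate 2 above. The group means were 349 ± 3.29 against 350 ± 187 CPM in males (SD, n = 2) and 352 ± 38.3 against 360 ± 134 CPM in females. The log2 difference across both sexes was 0.02 (SE 0.26, edgeR adjusted p = 1), with a 95% interval from -0.6 to 0.63. Gm13425, an antisense gene whose exons share 200 bases (8.09% of the exon length of Prdm12), ranged from 57.3 CPM in male_KO1 to 103 CPM in male_KO2, the same lowest and highest libraries. Strand was not used in the counting, and a read in the shared bases can count for both genes.

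**Figure D2:**
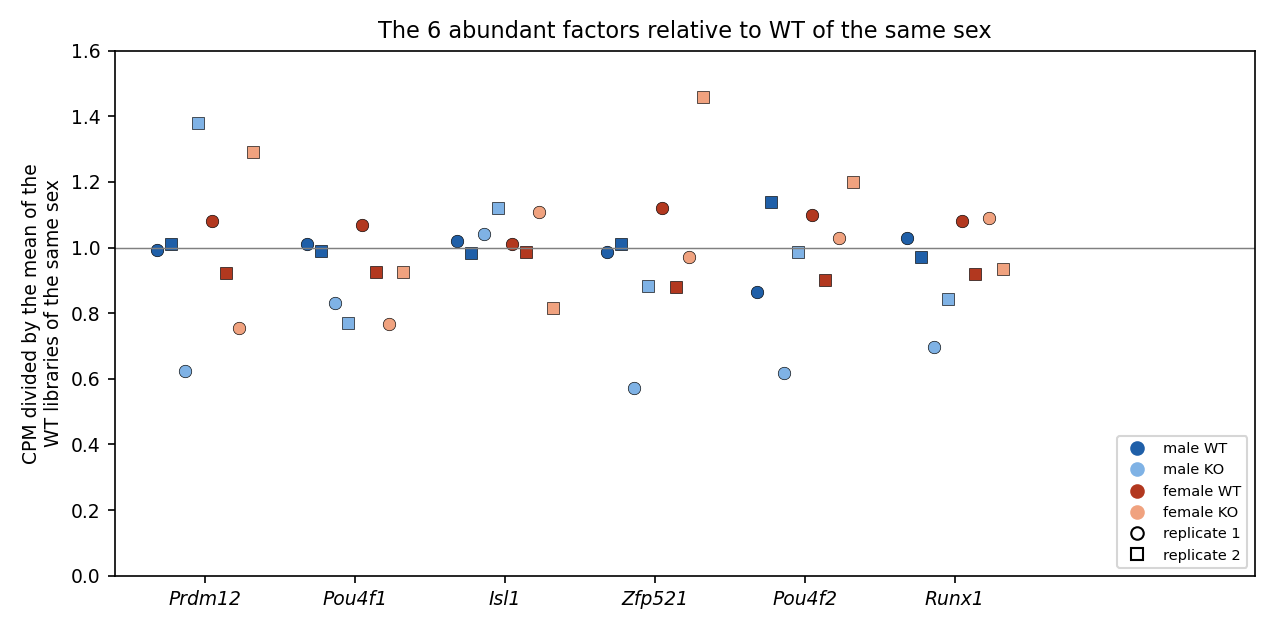
CPM of the 6 abundant genes in each library divided by the mean of the WT libraries of the same sex, on a linear axis, 1 point per library. Prdm12 shows KO libraries on both sides of WT, from 0.623 in male_KO1 to 1.38 in male_KO2, and Isl1 stays between 0.815 and 1.12.

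The library male_KO1 was the lowest of the 8 for 4 of the 6 abundant factors, Prdm12, Zfp521, Pou4f2 and Runx1. In it they stood at 0.623, 0.571, 0.617 and 0.698 of the male WT mean, against 1.04 for Isl1. Pou4f1 stood at 0.83 there, and lower, at 0.769, in male_KO2. How many of all genes were lowest in male_KO1 was not counted. In the same library the summed level of the 8 C-LTMR markers, Bhlha9 included, was 4400 CPM, against 5840 to 7480 CPM in the other 7 libraries. Most of this sum was Th, at 2980 CPM there against 3800 to 5360 CPM elsewhere. Gfra2 (289 CPM) and Fam19a4 (222 CPM) were also lowest there. Slc17a8 was not, at 35.6 CPM against 30.9 CPM in male_KO2, nor was Piezo2, at 644 CPM against 516 CPM in female_WT2. In male_KO2 the sum was 6150 CPM, also below the 6990 and 6800 CPM of male WT. All 8 markers were lower in male KO (median log2 difference -0.38, beside 0.02 for all genes tested). For 5 of them both male KO libraries lay below both male WT libraries, against 14.5% of all genes. In female KO 6 were higher and 2 lower (median 0.17, beside 0 for all genes). The part of these lower marker levels in the values of the factors was not tested.

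Runx3, Shox2 and Maf, the factors of the large-diameter branch, were low in most libraries and highest in male_KO1. Maf had at least 44 counts in each library, whereas Runx3 and Shox2 reached 0 in female_KO1. Runx3, which directs proprioceptor and other TrkC neurons, had 32 and 1 counts in male WT, 515 and 6 in male KO, 1 and 28 in female WT, and 0 and 1 in female KO. Of its summed CPM 89.1% came from male_KO1, where it stood at 8.93 CPM. Shox2, a homeodomain factor of TrkB touch neurons, had 9 and 2 counts in male WT, 672 and 48 in male KO, 3 and 128 in female WT, and 0 and 16 in female KO. Maf, a basic leucine zipper factor of rapidly adapting mechanoreceptors, stood at 1.4 and 0.865 CPM in male WT, 21.3 and 3.04 in male KO, 1.34 and 2.19 in female WT, and 0.861 and 2.5 in female KO. For Shox2 and Maf both male KO libraries were above both male WT libraries, whereas Runx3 in male_KO2, at 0.0925 CPM, lay between the WT libraries.

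Maf had the smallest unadjusted p of the 10 genes in males, with a log2 difference of 3.42 (SE 1.07, 95% interval 0.86 to 5.99, unadjusted p = 0.0162, edgeR adjusted p = 1). Without male_KO1 it was 1.42 (SE 1.09). Shox2 differed by 6.12 in males (SE 2.63, edgeR adjusted p = 1) and by 3.06 (SE 2.86) without male_KO1, and Runx3 by 4.1 (SE 2.58, edgeR adjusted p = 1). Without male_KO1 the Runx3 value changed sign, to -1.48 (SE 3.37). In females Maf differed by -0.07 (SE 0.98), Shox2 by -3.16 (SE 2.3) and Runx3 by -4.58 (SE 2.85), each at an edgeR adjusted p of 1. The Runx3 value is set against KO libraries of 0 and 1 counts, so its size depends on the fit and is no bound. The difference between the sexes was 9.28 for Shox2 (SE 3.48, unadjusted p = 0.0334), 3.49 for Maf (SE 1.43, unadjusted p = 0.0456) and 8.68 for Runx3 (SE 3.84, unadjusted p = 0.0599), each with an edgeR adjusted p of 0.98. Without male_KO1 it was 1.49 (SE 1.44) for Maf, 6.23 (SE 3.86) for Shox2 and 3.13 (SE 3.94) for Runx3. Without female_WT2 it was 5.03 for Shox2 and 5.1 for Runx3, and without female_KO2 it was 15.08 for Shox2. DESeq2 gave Maf in males an adjusted p of 0.0545, the lowest of the 40 values of the 10 genes in the 4 comparisons.

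The summed level of myelinated afferent markers was highest in male_KO1, the library in which these 3 factors were highest. All 12 such markers had counts in 7 libraries and 11 in female_KO2, where Vsnl1 was at 0. Their summed level was 6870 CPM in male_KO1 and 2450 CPM in male_KO2, against 1600 to 1770 CPM in male WT, 1460 to 1560 in female WT and 1620 to 1850 in female KO. Nefh, which encodes the heavy neurofilament subunit, reached 1550 CPM in male_KO1 against 61.4 to 296 CPM in the other libraries. Nefm, the largest part of the sum, reached 3760 CPM there against 685 to 1500 CPM elsewhere. All 12 markers were higher in male KO (median log2 difference 1.54, beside 0.02 for all genes tested), and 0 were called. For 7 of them both male KO libraries lay above both male WT libraries, against 14.5% of all genes. In female KO 7 were higher and 5 lower (median 0.1, beside 0 for all genes). Not every marker was highest in male_KO1. Ntrk3 stood at 254 CPM there and 266 CPM in female_KO1, and Ntrk2 at 56.4 CPM there and 58.6 CPM in male_WT1. Outside the male KO libraries, female_WT2 had the lowest sum, 1460 CPM, with the second highest Shox2. In female_KO1 the sum was 1850 CPM, with Runx3 and Shox2 at 0 and Maf at its lowest. Pvalb, 1 of the 12 markers, stood at 17.3 CPM in female_WT2 and at 0.509 CPM in female_KO1. S100b, a gene of the glial marker list, stood at 321 CPM in male_KO1 and at 4.95 to 61.1 CPM elsewhere. The part of these markers in the levels of Runx3, Shox2 and Maf was not tested.

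**Figure D3:**
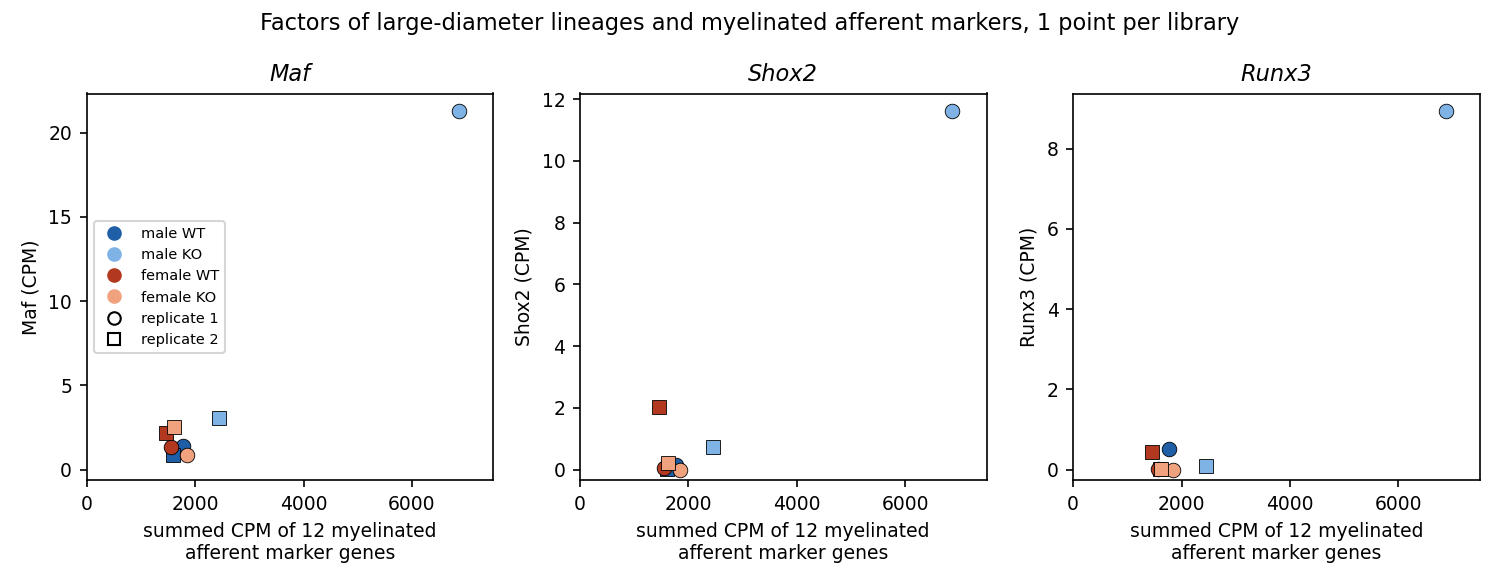
CPM of Maf, Shox2 and Runx3 (vertical axes) against the summed CPM of 12 myelinated afferent markers (horizontal axis), 1 point per library, on linear axes. The library male_KO1 is at the upper right in each panel, with 6870 CPM of markers, and the other 7 libraries lie at 2450 CPM or less.

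The genes whose levels were most like those of these factors were sought among 11858 tested genes with a mean of at least 5 CPM, by the root mean square difference of centred log2 CPM over the 8 libraries. For Maf they were Kcnc1 (0.5), Phlda3 (0.605) and Tesc (0.614). For Runx3 they were Nsg1 (1.01), Pvalb (1.14) and Sparcl1 (1.4), and for Shox2 they were Pon2 (1.08), Pvalb (1.25) and Sparcl1 (1.28). Pvalb, the parvalbumin of proprioceptors, stood at 83.1 CPM in male_KO1 and 17.3 CPM in female_WT2, the 2 libraries in which Shox2 was highest. For Pou4f3 the nearest genes were more distant, with Wdr91 at 1.58 and Gm43191 at 1.71.

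Within the RUNX family male_KO1 stood apart from the other 7 libraries. Per kilobase, Runx1 made up 97.2% to 99.7% of the summed Runx1, Runx2 and Runx3 level in 7 libraries and 84.9% in male_KO1. There Runx3 made up 11.3% and Runx2 made up 3.86%. Of the large MAF genes, Mafa, a factor of early myelinated touch neurons, reached 9.6 CPM in male_KO1 and at most 0.294 CPM elsewhere. Isl2, the paralog of Isl1, was the larger part of its pair, at 81.1% to 91.3%, and Zfp521 took 75.8% to 92.1% of its pair with Zfp423.

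Exons of 4 of the factors share bases with exons of other genes, and how many reads lie in the shared bases was not measured. For Prdm12 these are given above. For Shox2, 153 bases (4.62% of its exon length) are shared with Rsrc1, a protein-coding gene on the opposite strand at 30.1 to 57.5 CPM, and Shox2 had 0 counts in female_KO1, where Rsrc1 had 1539. For Maf, 440 bases are shared with the antisense gene Gm15655, which had at most 46 counts. For Runx1, 106 bases are shared with the antisense gene Gm26626, at 8.04 to 12.6 CPM. The 10 genes lie on 8 chromosomes, and their positions on GRCm38 are, for the 6 abundant ones, chr2:31640037-31655795 for Prdm12, chr14:104461676-104467999 for Pou4f1, chr13:116298281-116309689 for Isl1, chr18:13687013-13972787 for Zfp521, chr8:78433010-78436645 for Pou4f2 and chr16:92601466-92826149 for Runx1. The low ones are at chr3:66971727-66981771 for Shox2, chr8:115682942-115707794 for Maf, chr18:42394539-42397249 for Pou4f3 and chr4:135120652-135177990 for Runx3.

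All 10 factors passed the filter on low counts, and for Runx3, Shox2 and Pou4f3 this rested on few libraries. Of all 22013 genes, 0.00454% were called in males, in females and across both sexes, which is 1 gene in each, Bhlha9. Of the 10 factors 0 were called, and 1 had an unadjusted p below 0.05 in males (Maf), against 3.5% of all genes, and 0 in females, against 3.81%. In males the KO pair exceeded the WT pair without overlap for 3 factors (Isl1, Maf, Shox2) and fell short of it for 3 (Runx1, Zfp521, Pou4f1), against 14.5% of all genes in each direction. In females it was higher for 0, against 14.2%, and lower for 2 (Pou4f1 and Runx3, the latter on 0 and 1 counts), against 15.1%. Across both sexes the 4 KO libraries were higher than the 4 WT libraries for 0 factors, against 0.936% of genes, and lower for 0, against 0.895%. The median log2 difference of the 10 was 0.06 in males and -0.02 in females, beside 0.02 and 0 for all genes tested. For the difference between the sexes 0 of the 22013 genes were called by edgeR, 4.73% had an unadjusted p below 0.05, and DESeq2 called 284. The authors' deposited tables of genes at 5% list 150 genes for males and 13 for females, and 0 of the 10 factors are in either. The lowest mean signal (normalized counts) of a listed gene was 86.3 for males and 265 for females. In the female libraries Runx3 had at most 28 counts, Pou4f3 40, Shox2 128 and Maf 178, so their absence from the female table says little.

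**Figure D4:**
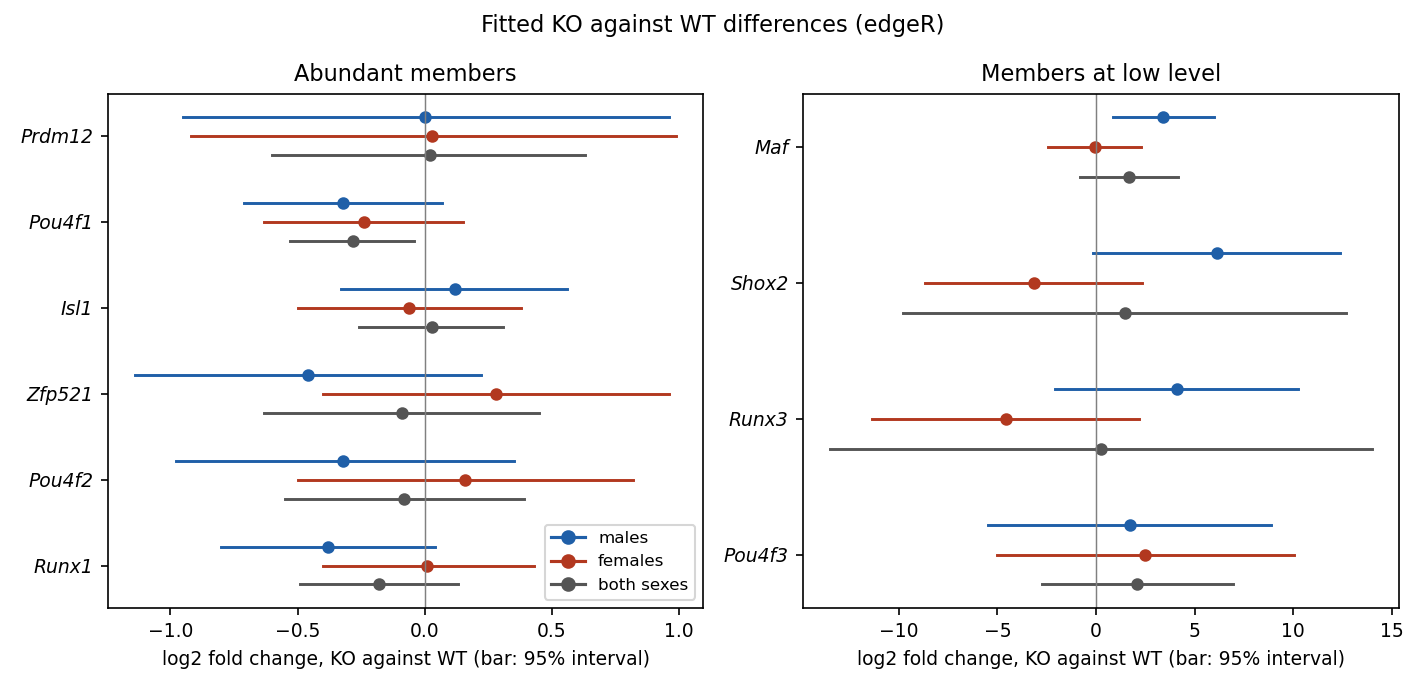
Fitted log2 fold changes of KO against WT (points) with their 95% intervals (bars) for the 10 genes, in males, in females and across both sexes, with the low members on a wider axis. The interval excludes 0 for Maf in males, from 0.86 to 5.99, and for Pou4f1 across both sexes, from -0.53 to -0.04, before adjustment over all genes.

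The partners and relatives of these factors were then read from a list of 29 genes, of which 25 were tested and 0 passed. In males 11 were higher and 14 lower in KO, with a median log2 difference of -0.02, and in females 16 were higher and 8 lower, with a median of 0.17. The most abundant were Isl2, Ssbp3 and Ldb2 (cofactors of LIM-homeodomain proteins) and the small MAF gene Mafg. Isl2 stood at 344 CPM in male_KO1 and at 584 to 767 CPM in the other libraries. Mafg stood between 210 and 256 CPM in all 8.

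Of 53 other transcription factors of sensory neurons 42 were tested and 0 passed, with 23 higher and 19 lower in males (median 0.03) and 20 higher and 22 lower in females (median -0.03). Klf7, a zinc-finger factor of sensory neurons, stood between 669 and 942 CPM. Prrxl1, a homeodomain factor of nociceptor circuits, stood at 368 CPM in male_KO1 and between 463 and 757 CPM elsewhere. Zfhx3 stood between 141 and 283 CPM and Ebf1 between 168 and 205 CPM. The authors' deposited table for males lists Insm2 (log2 fold change 1.76) and Etv1 (1.39), and that for females lists Etv1 (-1.61). Etv1, a factor of proprioceptors, stood at 2.74 and 1.38 CPM in male WT, 42.2 and 6.01 in male KO, 8.12 and 22.3 in female WT, and 0.215 and 0.211 in female KO. The groups thus did not overlap in either sex and differed in opposite directions. Of all genes, 14.5% had KO above WT without overlap in males, and 15.1% had KO below WT without overlap in females.

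Genes described as dependent on Runx1 were measured as targets. Of 22 such genes 21 were tested and 0 passed, with 14 higher and 7 lower in males (median 0.28) and 9 higher and 11 lower in females (median -0.04). The most abundant were C-LTMR genes, Th, Ret, Piezo2 and Gfra2. Th, the dopamine-synthesis enzyme that marks C-LTMRs, had a log2 difference of -0.39 (SE 0.24) in males and 0.04 (SE 0.24) in females (edgeR adjusted p = 1 in each). Ret, a receptor of GDNF-family ligands, had -0.33 (SE 0.25) and 0.24 (SE 0.25), Gfra2, its co-receptor, -0.25 (SE 0.35) and 0.17 (SE 0.35), and the mechanically gated channel Piezo2 -0.13 (SE 0.22) and 0.34 (SE 0.22), each at an edgeR adjusted p of 1. The authors' deposited table for males lists 3 genes of this list as higher, Mrgprd (2.69), Gfra1 (1.99) and Lpar3 (1.58), which are genes of nonpeptidergic nociceptors and other afferents.

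Of 9 genes described as held down by Runx1, 7 were tested and 0 passed, with 5 higher in males (median 1.04) and 2 higher in females (median -0.37). Tac1, the substance P precursor, stood at 131 and 171 CPM in male WT, 334 and 286 in male KO, 275 and 364 in female WT, and 242 and 149 in female KO. Calca, the CGRP precursor, stood at 59.4 and 88.4 CPM in male WT and 579 and 910 in male KO, and in females ranged from 5.94 CPM in female_KO2 to 852 CPM in female_WT2. Calcb, its paralog, stood between 272 and 457 CPM and Acpp, an ectonucleotidase, between 299 and 586 CPM. The summed level of 11 peptidergic markers, which include Calca, Calcb and Tac1 of this list, was 715 and 758 CPM in male WT, 1550 and 2160 in male KO, 1240 and 2040 in female WT, and 1570 and 508 in female KO, and its part in these values was not tested.

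Of 13 genes described as downstream of Runx3, Shox2 or Maf, 11 were tested and 0 passed. In males 10 were higher (median 3.49, beside 0.02 for all genes tested), and in females 4 (median -0.03, beside 0). In males the KO libraries lay above those of WT for 6 genes and below for 1, against 14.5% of all genes each. In females this held for 1 and 1, against 14.2% and 15.1%. Beside Nefh the most abundant were the neurotrophin receptors Ntrk3 (TrkC) and Ntrk2 (TrkB) and the calcium-binding protein gene Necab2. Ntrk3, the receptor linked to Runx3, stood at 254 CPM in male_KO1 and at 133 to 266 CPM in the other libraries. Ntrk2, the receptor linked to Shox2, stood at 56.4 CPM in male_KO1 and at 25.9 to 58.6 CPM elsewhere, and Necab2 at 55.8 CPM, its lowest level of the 8 (101 to 180 CPM elsewhere). The authors' deposited table for males lists Nefh (1.92), Pvalb (1.43) and Etv1 (1.39) from this list as higher. The log2 fold changes of the authors' tables are separate estimates and are not to be set beside the edgeR values in size. For Nefh in males they were 1.92 (SE 0.37) in the authors' table and 3.38 (SE 0.78) by edgeR.

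Markers of other cells gave the following levels. Glia and Schwann cell markers summed to 3410 to 6040 CPM over the 8 libraries, with Pmp2 at 0 in each, and 5590 CPM in male_KO1, and Pmp22 and Apoe were the most abundant of them. Of the 11 tested glial markers 9 were higher in male KO (median log2 difference 1.17, beside 0.02 for all genes tested). For 8 of them the libraries did not overlap, against 14.5% of all genes. In female KO 1 was higher (median -0.54, beside 0 for all genes), and 0 were called in either sex. Vascular and fibroblast markers summed to 76.1 CPM in male_KO1 and 3.18 to 53.5 CPM elsewhere. Immune markers summed to at most 29.5 CPM, with Ptprc at 0 in 7 libraries. Nonpeptidergic and pruriceptor markers summed to 555 CPM in male_KO2, the library with the highest Prdm12 and Pou4f3, and 116 to 240 CPM elsewhere. Pan-neuronal markers summed to 10300 to 11500 CPM. The part of these cells in the levels of the 10 factors was not tested.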

How the data were processed

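RNA of sorted C-LTMRs was turned into full-length cDNA with SMART-Seq v4 and tagmented with Nextera XT, per the labels' protocols. The deposited table holds raw counts per gene for 8 libraries, made with featureCounts 1.6.1 over exons of Ensembl release 97 (GRCm38), without strand and with reads over several genes counted in each, per the file headers. Tools named in the submitters' processing notes are DESeq2 1.14.1, bcl2fastq 2.17.1.14 and Subread 1.6.4. Which aligner was run: not given in the sources used here. The authors' deposited tables hold a mean signal, a log2 fold change with its SE, a test statistic (a score), and p-values for genes at 5% only.

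Of 55573 gene identifiers 55394 were matched to a symbol. Genes were kept with filterByExpr of edgeR 4.0.16 (R 4.3.3), leaving 22013, and scaled by TMM (factors 0.9793 to 1.022). The quasi-likelihood F test of edgeR, robust, compared KO with WT in each sex and between the sexes in a fit of 4 groups over all 8 libraries, and across both sexes in an additive model of sex and genotype. All tests were two-sided, with Benjamini-Hochberg adjustment over all tested genes and a threshold of 0.05. The SE is the log2 fold change divided by the square root of F, and 95% intervals use the degrees of freedom of the fit. Log2 CPM used a prior count of 2. The edgeR fit was also run on simulated data with 200 genes changed, and the outcome is not given here. The common biological coefficient of variation, the estimated spread between replicates, was 76.6%. Alternatives were DESeq2 1.42.0, RLE scaling, no filter, no robust estimation, 1 sex only, the replicate number as a block, and leaving out each library.

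The members and lists were chosen with earlier results of these data known. Genes named from each other list are its 4 most abundant tested genes and any that passed. Likeness was computed for members with an SD of log2 CPM above 1, and the 3 nearest genes are named, except where a gene is not reported here. Genes named from the authors' tables, family relatives, genes sharing exons, Slc17a8, Fam19a4, S100b, Etv1 and Pvalb were added after their values were seen.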

Additional observations from a re-analysis of the deposited data

How the results depend on the processing

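No factor passed an adjusted p of 0.05 under any alternative tried. Of 218 values of the factors under alternatives that keep every library, 212 kept their direction, and of 320 with 1 library left out 276 did. The number of genes called moved with the tool: DESeq2 called 203 in males, 234 in females, 161 across both sexes and 284 for the difference between the sexes, against 1, 1, 1 and 0 by edgeR. Fitting only the 4 libraries of a sex called 0 in males and 0 in females, and leaving out each library left 1, 1, 1 and 0. Over all tested genes, replicates of the same number did not deviate together (correlations between groups of -0.1 to 0.11). Such a correlation cannot exclude a pairing that touches few genes. Pou4f3, for one, had fewer counts in replicate 1 than in replicate 2 in each group. With the replicate block edgeR called 0 genes in females, and the log2 difference was -1.22 for Pou4f3 in males and -0.08, -0.04 and -0.06 for Prdm12 in males, in females and across both sexes. Prdm12 in males was 0 with no filter, with its sign turned in later digits, and Runx3 across both sexes was -0.1 by DESeq2. With 1 library left out, where a lone sample is assumed to vary like the other groups, values ran in males from -1.48 to 7.98 for Runx3, -8.31 to 4 for Pou4f3 and -0.7 to 0.46 for Prdm12. In females they ran from -0.1 to 0.14 for Runx1, -0.05 to 0.55 for Zfp521, -4.59 to 7.12 for Pou4f3, -0.29 to 0.14 for Isl1, -1.04 to 0.5 for Maf, -8.97 to 1.09 for Shox2 and -0.41 to 0.37 for Prdm12. Across both sexes they ran from -3.12 to 2.71 for Runx3, -0.3 to 0.1 for Zfp521, -0.18 to 0.09 for Pou4f2, -0.05 to 0.12 for Isl1, -1.49 to 4.43 for Shox2 and -0.24 to 0.21 for Prdm12. For the difference between the sexes they ran from -10.85 to 6.3 for Pou4f3, -0.03 to 0.41 for Isl1, -0.76 to 0.43 for Prdm12 and -0.22 to 0.06 for Pou4f1. The cause was not tested. Ordered by CPM and not per kilobase, Runx1 took place 3, Isl1 5, Pou4f2 6, Maf 7, Shox2 8, Runx3 9 and Pou4f3 10, since exon lengths differ. With 2 libraries a group, small differences were not detectable, and large fitted ones did not pass either. In males Maf, at a log2 difference of 3.42 (SE 1.07), and Nefh, at 3.38 (SE 0.78), did not pass. A gene that did not pass may thus still differ by much. The low counts of Runx3, Shox2 and Pou4f3 limit their fitted values.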
